A study of Mus musculus with 2 samples.

Results

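Ifitm1, Ifitm2, Ifitm3 and Ifitm6 are 4 neighbouring genes of the interferon-induced transmembrane family, and their rows are 4 of the 13211 genes listed over 2 single-cell libraries of mouse bone marrow. The genes were chosen on their levels in these same cells, which were already known, so their pattern across cell types is given as a description and was not tested. The Col1a1fspKO library came from Fsp1-Cre;Col1a1flox/flox mice, in which the promoter of Fsp1 (S100a4) drives Cre and the floxed Col1a1 alleles are recombined in cells of that lineage. The WT library came from Cre-negative mice that carried the same floxed alleles. Each library was 1 pool of 2 mice, 2 months old, whose femur and tibia marrow was flushed out, sorted for live cells and captured with 10x Genomics 3′ chemistry, which counts each captured transcript once as a unique molecular identifier (UMI). With 1 library for each genotype there is no replicate: no p-value is given, and every interval below covers counting error only, at 95%.

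IFITM proteins are small membrane proteins of the cell surface and endosomes that keep enveloped viruses from fusing with the membranes they must cross. Type I and type II interferons induce several members through interferon-stimulated response elements (ISRE) and gamma-activated sites (GAS), and some cells hold high levels without added interferon. IFITM3 is the best known antiviral member and acts in late endosomes, IFITM1 sits more at the cell surface, IFITM2 is a close relative of IFITM3, and IFITM6 is a rodent member known from myeloid cells. The study itself asked how the marrow changes when the Fsp1 lineage cannot make type I collagen.

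The members lie side by side on chromosome 7 of GRCm38 (mm10). In the RefSeq table Ifitm2 spans 140954837 to 140959686, Ifitm1 140967429 to 140969827, Ifitm3 141009590 to 141010744 and Ifitm6 141015812 to 141016892, which is 62.1 kb in all with 0 other coding genes between them. Ifitm1 is on the plus strand and the other 3 members are on the minus strand. Their coding sequences differ enough for reads to be told apart over most of their length. Ifitm2 and Ifitm3 are the closest pair, 75.8% identical, and the 5 other pairs are 49.7% to 63.5% identical. In the last 300 bases of the transcripts, where 3′ chemistry reads, the longest run shared by any pair was 26 bases.

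The promoters are shown because the members differ in the interferon motifs at their starts. Each line is the strand of the gene, 5′ to 3′, from 120 bases before to 30 bases from the 1 start that the RefSeq promoter table (GRCm38.p6) gives for each gene, and capitals mark a match to the ISRE core GAAANNGAAA or to the GAS motif TTCNNNGAA.
Ifitm1, chr7:140967956-140968105, plus strand: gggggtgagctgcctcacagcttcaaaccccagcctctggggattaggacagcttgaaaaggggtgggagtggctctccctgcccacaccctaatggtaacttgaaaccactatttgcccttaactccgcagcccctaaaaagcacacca
Ifitm2, chr7:140955932-140956081, minus strand: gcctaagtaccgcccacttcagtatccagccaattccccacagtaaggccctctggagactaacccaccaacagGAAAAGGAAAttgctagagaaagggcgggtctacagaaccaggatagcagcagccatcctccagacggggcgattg
Ifitm3, chr7:141010715-141010864, minus strand: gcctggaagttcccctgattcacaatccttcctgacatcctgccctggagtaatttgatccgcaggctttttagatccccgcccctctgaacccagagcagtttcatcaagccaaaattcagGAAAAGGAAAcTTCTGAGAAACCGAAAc
Ifitm6, chr7:141016863-141017012, minus strand: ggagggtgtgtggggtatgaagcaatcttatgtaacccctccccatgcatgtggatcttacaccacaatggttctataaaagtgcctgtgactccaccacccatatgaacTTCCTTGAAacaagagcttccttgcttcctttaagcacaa

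Both strands were searched over 250 bases before and 50 bases from each start, counting the first transcribed base as 1. The ISRE core was found at -46 to -37 of Ifitm2 (GAAAAGGAAA) and at 3 to 12 (GAAAAGGAAA) and 20 to 29 (GAAACCGAAA) of Ifitm3. The GAS motif, which reads as GAS on both strands, was found at 14 to 22 of Ifitm3 (TTCTGAGAA), where it overlaps the second ISRE core, and at -10 to -2 of Ifitm6 (TTCCTTGAA). Neither set of letters was in the Ifitm1 window. Of the 32851 mouse promoters in the table, 3.44% held the ISRE core and 8.30% held the GAS motif. For Ifitm1 and Ifitm2 the start used lies inside the span of the gene. GENCODE transcripts also start upstream of the start used for Ifitm3, at 141010770, and for Ifitm6, at 141017558 and 141017924. Windows at such other starts were not searched, and the positions hold for the starts used. A match is a description of the letters and not a measured binding site.

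The Col1a1fspKO library held 1309 cells and 8647722 UMIs, and the WT library 1169 cells and 8624469 UMIs, with 2540 or more UMIs in every cell and 2 barcodes in common. Clusters were named from marker genes, as "X-like" classes, and 2399 of 2478 cells received a name. One cluster of 79 cells stayed unnamed because it carried S100a8 at 49295 CPM (UMIs of a gene per 1000000 UMIs of its cells) together with B lineage markers, a rule set after the data were seen. The targeted gene could not be checked: Col1a1 had 3 UMIs in Col1a1fspKO and 0 in WT, both at or under the floor of 3 UMIs used throughout. S100a4, the gene of the Cre driver, was 0.925 times as high in Col1a1fspKO (0.870 to 0.983). Summed markers of megakaryocytes were 12.3 and 12.1 CPM in Col1a1fspKO and WT, those of endothelial cells 22.1 and 20.6 CPM, and those of mesenchymal cells 2.54 and 17.9 CPM. The mesenchymal sum was mostly Lepr in Col1a1fspKO, with 19 of 22 UMIs, and mostly Cxcl12 in WT, with 118 UMIs against 0 in Col1a1fspKO. Cxcl12 was also among the leading genes of the preneutrophil-like cluster, so the WT sum cannot be read as mesenchymal cells. Ppbp, Tek and Dcn were listed in neither library.

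The 4 genes differed in their spread over the marrow classes, and they overlapped in several of them. Ifitm6 was a gene of the neutrophil series, and Ifitm3 was highest in Mono/Macro-like cells in CPM of all UMIs. Ifitm2 was spread over the myeloid classes, and Ifitm1 was held mostly by progenitor-like and Eosino/Baso-like cells. In Col1a1fspKO and WT respectively, the neutrophil classes from the preneutrophil-like stage on held 86.2% and 82.7% of Ifitm6 UMIs, and Mono/Macro-like cells held 62.7% and 71.8% of those of Ifitm3 and 52.1% and 52.8% of those of Ifitm2. Of the Ifitm1 UMIs, 68.2% and 60.0% lay in progenitor-like cells and 6.54% and 34.6% in the 9 and 18 Eosino/Baso-like cells. Lymphoid classes held little of any member: no UMI of the 4 genes was left in 68.6% to 88.5% of the pro-B/pre-B-like, B-like, T/NK-like and plasmacytoid dendritic-like cells of either library once each cell was thinned to 2500 UMIs. All comparisons between genes here are of UMIs, 1 for each captured 3′ end, so length does not enter.

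**Figure D1:**
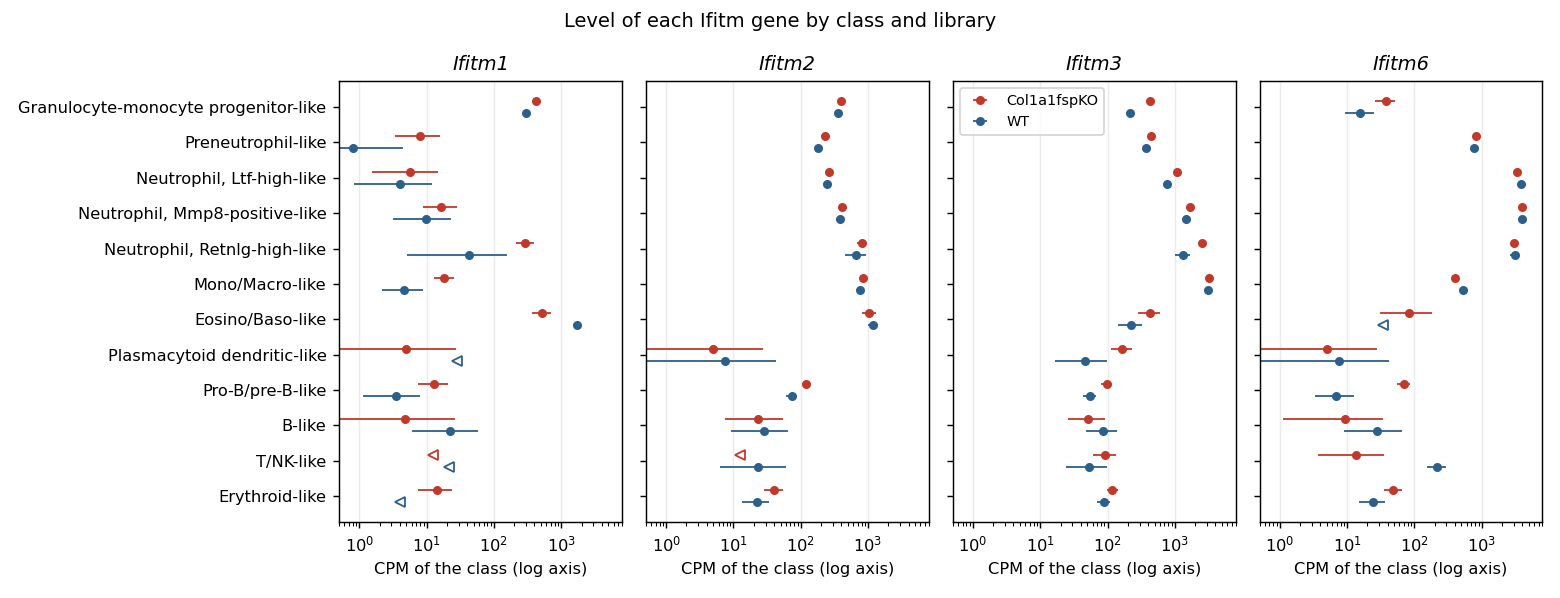
Level of each Ifitm gene in CPM of the class (x axis, log scale) for 12 classes (y axis) in Col1a1fspKO (red) and WT (blue). Points are the UMIs of a class summed, bars are exact Poisson 95% counting intervals, and an open triangle is the upper limit where no UMI was found. Ifitm6 stands between 3008 and 4042 CPM in the Ltf-high, Mmp8-positive and Retnlg-high neutrophils and Ifitm3 at 3176 and 3063 CPM in Mono/Macro-like cells.

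The leading genes of the granulocyte-monocyte progenitor-like class included Cd34 and the primary granule genes Mpo and Ctsg. They also included Prg2 and Car1, which the marker lists give to the Eosino/Baso and erythroid classes, so the class may be mixed. These cells were the main site of Ifitm1. Its level was 425 CPM (384 to 470) in the 75 Col1a1fspKO cells and 301 CPM (269 to 335) in the 76 WT cells. Ifitm2 stood at 402 and 363 CPM and Ifitm3 at 431 and 218 CPM in the same cells, so 3 members were present together and Ifitm6 was nearly missing, at 37.5 and 15.8 CPM. Most of these Ifitm6 UMIs came from a few cells: leaving out the 3 Col1a1fspKO and 2 WT cells with S100a8 above 20000 CPM brought Ifitm6 to 10.7 and 11.4 CPM. Ifitm1 was uneven from cell to cell. After thinning it was seen in 42.7% of Col1a1fspKO cells (31.3 to 54.6%) and 40.8% of WT cells (29.6 to 52.7%), against 0% of T/NK-like cells in either library, and before thinning in 66.7% and 63.2% at median depths of 8920 and 12820 UMIs, with medians of 4325.5 and 4258.5 UMIs in T/NK-like cells. The 5 cells richest in Ifitm1 held 37.8% and 53.4% of its UMIs in the class. At a finer clustering (resolution 1.2) the progenitor-like cluster split in 2. The larger piece, of 64 and 60 cells, carried Ifitm1 at 568 and 415 CPM, and the smaller, of 11 and 16 cells with median depths of 26048 and 20375 UMIs, at 85.9 and 62.7 CPM.

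Less Ifitm1 and more Ifitm6 marked the step to the preneutrophil-like class, the Fcnb- and Cebpe-positive cells that precede Ltf. Preneutrophil-like cells held 8 Ifitm1 UMIs in Col1a1fspKO and 1 in WT, or 7.96 and 0.801 CPM, which is 0.0187 times (0.00803 to 0.0373) and 0.00267 times (6.7e-05 to 0.0150) the progenitor-like level. Ifitm6 was at 812 and 772 CPM, 21.7 times (15.4 to 31.5) and 49.0 times (30.4 to 84.4) the progenitor-like level. Ifitm2 was lower at 231 and 183 CPM, 0.574 and 0.504 times the progenitor-like level. Ifitm3 was at 441 and 376 CPM, a ratio of 1.02 (0.891 to 1.18) in Col1a1fspKO and 1.72 (1.47 to 2.02) in WT. Large shifts are common at this step: of all genes tested, 13.9% in Col1a1fspKO and 14.2% in WT were at least 2 times higher in preneutrophil-like cells, and 31.7% and 32.2% at least 2 times lower. The class itself carried as many markers of the Ltf-high stage as of its own among its leading genes, 3 each.

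Across the later stages Ifitm6 stayed near one level, while Ifitm3 and Ifitm2 were higher at each stage in Col1a1fspKO. In WT, the Ifitm3 intervals of the last class and the one before overlapped. The Ltf-high class makes secondary granule proteins such as lactoferrin, the Mmp8-positive class adds gelatinase granule genes, and the Retnlg-high class is the most mature. In the Ltf-high class Ifitm6 stood at 3380 and 3835 CPM in Col1a1fspKO and WT, 4.16 (3.84 to 4.51) and 4.97 (4.61 to 5.35) times the preneutrophil-like level, at a step where 3.33% and 3.24% of all genes tested were 2 or more times higher. It was then 4042 and 3955 CPM in the Mmp8-positive class and 3008 and 3079 CPM in the Retnlg-high class, so that the last stage had the lowest value of the 3, with an interval that overlapped that of Ltf-high cells in Col1a1fspKO. Ifitm3 stood at 1062 and 768 CPM in Ltf-high cells, at 1697 and 1442 CPM in Mmp8-positive cells and at 2521 and 1304 CPM in Retnlg-high cells. The Ifitm3 ratio of Ltf-high over preneutrophil-like cells was 2.41 (2.14 to 2.71) and 2.04 (1.80 to 2.31), and that of Mmp8-positive over Ltf-high cells 1.60 (1.46 to 1.75) and 1.88 (1.68 to 2.10). From Mmp8-positive to Retnlg-high cells the Ifitm3 ratio came to 1.49 in Col1a1fspKO (1.33 to 1.66) and to 0.904 in WT (0.685 to 1.18), where the Retnlg-high class held 14 cells and 61 Ifitm3 UMIs. That WT log2 ratio, -0.15, was 0.25 to 0.33 under 6 other ways of drawing the classes. The Ifitm6 log2 ratio at the same step in WT, -0.36, was near 0 under most of them. It was 0.0047 at resolution 1.2, -0.051 with 15 components, -0.053 with all variable genes, -0.071 with CCA integration and 0.031 with stricter filters. With single cells assigned by marker score it stayed within its counting interval, -0.62 to -0.12.

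Ifitm2 was lowest at the preneutrophil-like and Ltf-high stages, 262 and 247 CPM in the latter, and stood at 416 and 382 CPM in Mmp8-positive and at 810 and 663 CPM in Retnlg-high cells. The place of Ltf-high cells depends on the scale. Without the 20 most abundant genes in the total they stood at 598 and 567 CPM, above progenitor-like cells at 449 and 403 CPM. The Retnlg-high over Mmp8-positive ratio of Ifitm2 was 1.95 (1.58 to 2.39) and 1.74 (1.15 to 2.55). Ifitm1 reappeared at the last stage in Col1a1fspKO. It was 16.5 and 9.89 CPM in Mmp8-positive cells and 292 CPM (215 to 387) and 42.8 CPM (5.18 to 154) in Retnlg-high cells, from 48 and 2 UMIs. The WT count was under the floor of 3 UMIs, and its interval overlapped that of Mmp8-positive cells (3.21 to 23.1). In Col1a1fspKO the Retnlg-high level was 17.7 times (9.43 to 35.6) the Mmp8-positive level. At this step 6.86% of genes tested were 2 or more times higher (5.73% in WT). The 48 UMIs lay in 15 of 55 cells, and 5 cells held 66.7% of them.

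**Figure D2:**
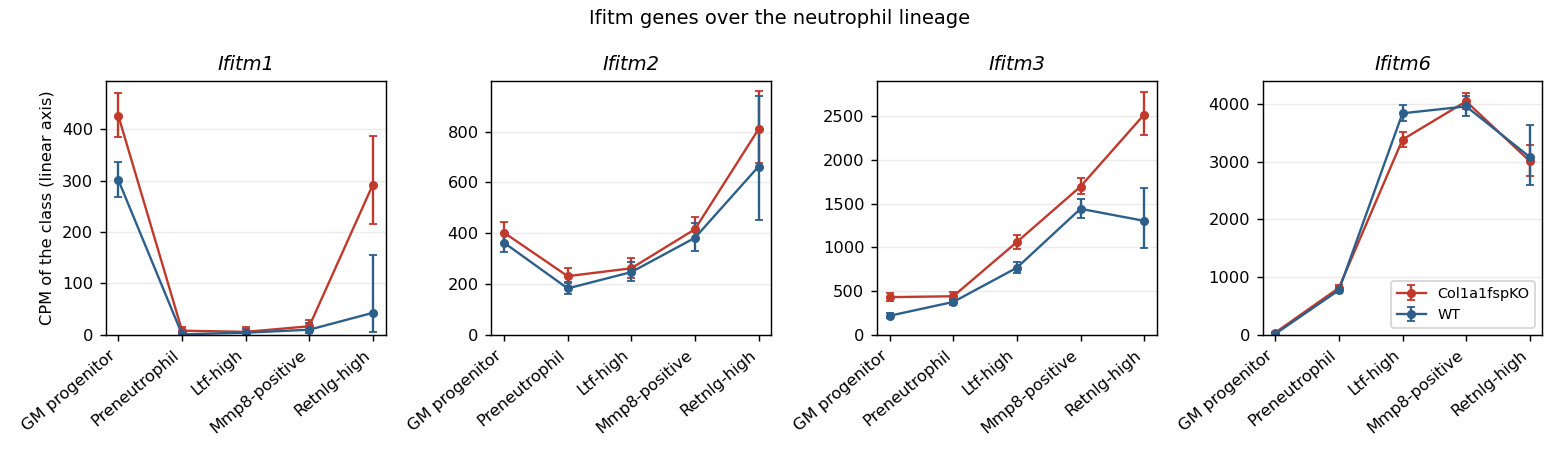
CPM of each Ifitm gene (y axis, linear, each panel with its own scale) in the progenitor-like class and the 4 neutrophil classes in order of maturation (x axis), for Col1a1fspKO (red) and WT (blue), with exact Poisson 95% counting intervals. Ifitm1 goes from 425 and 301 CPM to under 10 CPM at the preneutrophil-like stage, while Ifitm6 goes from 37.5 and 15.8 CPM to 4042 and 3955 CPM in Mmp8-positive cells.

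The course was also drawn without class borders. The neutrophils from the Ltf-high stage on were ordered by their own Retnlg level, a gene of mature neutrophils, and cut into 5 bins of equal cell number over both libraries, a choice made after seeing the data. Over these bins Ifitm3 was 1073, 1069, 1563, 1534 and 2295 CPM in Col1a1fspKO and 784, 754, 1153, 1407 and 1693 CPM in WT, with Col1a1fspKO the higher in each bin, so that WT too had its highest value in the last bin, unlike in the last class. Nor was Ifitm6 lower at the end of WT, as it was by class. Ifitm6 stayed between 3361 and 4066 CPM in Col1a1fspKO and between 3791 and 3978 CPM in WT. Ifitm2 was 281, 228, 338, 329 and 773 CPM in Col1a1fspKO and 240, 226, 281, 375 and 669 CPM in WT, so the last bin stood apart. Ifitm1 was at or under 15 CPM in the first 4 bins of either library and 170 CPM (128 to 220) in the last bin of Col1a1fspKO, against 20.9 CPM (4.31 to 61.1) in WT, from 56 UMIs in 105 cells and 3 UMIs in 41 cells.

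**Figure D3:**
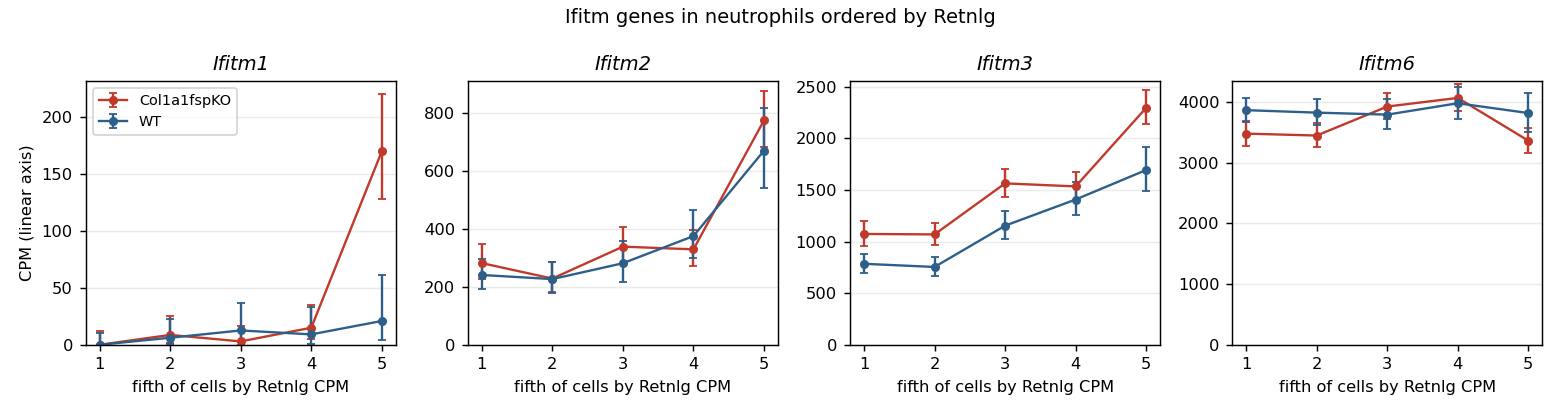
CPM of each Ifitm gene (y axis, linear) in neutrophils from the Ltf-high stage on, split into 5 bins by Retnlg CPM (x axis, lowest to highest), for Col1a1fspKO (red) and WT (blue), with exact Poisson 95% counting intervals. Ifitm3 goes from 1073 to 2295 CPM in Col1a1fspKO and from 784 to 1693 CPM in WT, and Ifitm1 appears in the last bin of Col1a1fspKO at 170 CPM.

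Ifitm3 and Ifitm6 were often seen in the same neutrophils, as their single shares imply. In Ltf-high cells thinned to 2500 UMIs, Ifitm3 was seen in 83.6% and 75.2% and Ifitm6 in 98.0% and 100% of cells, and in preneutrophil-like cells Ifitm3 in 55.1% and 53.0% and Ifitm6 in 69.4% and 72.0%. In cells thinned to 2500 UMIs both were seen in 43.9% of preneutrophil-like cells in Col1a1fspKO and 44.7% in WT, in 82.9% and 75.2% of Ltf-high cells, and in 95% and 93.4% of Mmp8-positive cells. They were seen together in 5.33% and 2.63% of progenitor-like cells. Of the UMIs of the 4 genes, Ifitm6 made up 71.8% and 79.0% in Ltf-high cells, 65.5% and 68.3% in Mmp8-positive cells and 45.4% and 60.5% in Retnlg-high cells, as the Ifitm3 share went from 22.6% and 15.8% to 38.0% and 25.6%. Summed over the 4 genes, the family stood at 4710 and 4854 CPM, 6171 and 5789 CPM and 6630 and 5089 CPM in these 3 classes.

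Mono/Macro-like cells, the monocytes and their macrophage kin, carried Ifitm3 at 3176 CPM (3098 to 3256) in 267 Col1a1fspKO cells and 3063 CPM (2985 to 3142) in 275 WT cells, the top of its order in both libraries. This order depends on the scale: without the 20 most abundant genes in the total, the log2 ratio of Mono/Macro-like over Mmp8-positive cells in Col1a1fspKO went from 0.90 to -0.0037. On that scale Retnlg-high cells of Col1a1fspKO, at 4806 CPM, stood above Mono/Macro-like cells, at 3670 CPM. Ifitm3 made up 71.5% and 70.4% of the family UMIs in Mono/Macro-like cells. In CPM of all UMIs, Ifitm2 stood there at 845 and 761 and Ifitm6 at 406 and 520. Only in Eosino/Baso-like cells was Ifitm2 higher, at 1037 CPM (814 to 1302) and 1189 CPM (992 to 1412). The first of these overlapped the Mono/Macro-like interval and the second did not.

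The Mono/Macro-like class was made of 3 clusters that differed in all members but Ifitm1. Cluster 0, with 173 and 187 cells led by Wfdc17, Clec4a1 and Clec4a3, carried Ifitm3 at 4928 and 4969 CPM. Clusters 8 and 11, led by Ass1, Klf4 and F13a1, carried it at 1447 and 973 CPM and at 1726 and 1282 CPM. Cluster 0 over clusters 8 and 11 gave 3.14 times (2.97 to 3.33) and 4.45 times (4.16 to 4.76) for Ifitm3, 2.63 (2.36 to 2.93) and 2.70 (2.40 to 3.04) for Ifitm2 and 4.21 (3.54 to 5.03) and 5.84 (4.89 to 7.02) for Ifitm6, where 7.30% and 8.49% of all genes tested were 2 or more times higher. Ifitm1 had 15 and 6 UMIs in cluster 0 and 21 and 3 UMIs in the other clusters together, too few to order.

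The Ifitm6 of monocytes was set beside a marker of neutrophil RNA, since transcripts of broken cells can enter any droplet. S100a8, the gene of an abundant neutrophil calcium-binding protein, stood in Mono/Macro-like cells at 2.83% and 1.94% of its Mmp8-positive level, whereas Ifitm6 stood there at 10.0% and 13.1% of its own. Without the 12 and 10 cells that had S100a8 above 20000 CPM, Ifitm6 in this class was still 380 CPM (352 to 409) and 489 CPM (458 to 522). In plasmacytoid dendritic-like cells Ifitm6 was at 0.123% and 0.191% of its Mmp8-positive level, with S100a8 at 0.639% and 0.551%. Other lymphoid classes had 0 to 18.0 CPM of Ifitm6 once cells rich in S100a8 were left out, and the part of free RNA in these values was not tested.

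Eosino/Baso-like cells, led by the basophil protease genes Prss34 and Mcpt8, combined the highest Ifitm1 and Ifitm2 with little Ifitm6. Ifitm1 was 519 CPM (365 to 715) in 9 Col1a1fspKO cells and 1723 CPM (1485 to 1988) in 18 WT cells. One WT cell held 81 of the 187 UMIs, and without the richest cell of each library the levels were 426 and 1037 CPM. Ifitm1 and Ifitm2 were seen together in 66.7% and 44.4% of these cells after thinning, against 36.0% and 22.4% of progenitor-like cells. Ifitm6 had 6 UMIs in 2 Col1a1fspKO cells and 0 in WT.

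In the order of classes, neighbours often could not be separated. For Ifitm1 in Col1a1fspKO the intervals of Eosino/Baso-like, progenitor-like and Retnlg-high cells overlapped from each to the next, and the next class, Mono/Macro-like at 18.3 CPM, stood apart from them. In WT the first of these classes stood apart from the second and the second from the third. For Ifitm3 the top 4 classes in Col1a1fspKO, Mono/Macro-like, Retnlg-high, Mmp8-positive and Ltf-high, each stood apart from the next, whereas in WT the Mmp8-positive and Retnlg-high intervals overlapped. Ifitm6 in Ltf-high and Retnlg-high cells overlapped in Col1a1fspKO, and in Mmp8-positive and Ltf-high cells in WT. Below about 165 CPM, the order of plasmacytoid dendritic-like, erythroid-like, pro-B/pre-B-like, T/NK-like and B-like cells for Ifitm3 was not resolved, with overlapping neighbours throughout both libraries.

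Between the libraries, summed over all cells, the members differed little. Ifitm3 was 1152 CPM in Col1a1fspKO and 953 CPM in WT, a ratio of 1.21 (1.17 to 1.24). Ifitm2 was 369 and 322 CPM, a ratio of 1.14 (1.09 to 1.2), and Ifitm6 was 920 and 832 CPM, a ratio of 1.11 (1.07 to 1.14). Ifitm1 was 65.5 and 62.6 CPM, a ratio of 1.05 (0.927 to 1.18), which fell below 1 when cells were averaged. None of the 4 was 1.5 times higher or lower, a limit that 3.0% of the 9725 genes with 50 or more UMIs passed upward and 2.93% downward. These sums mix a change of level with a change of cells, because Mmp8-positive and Retnlg-high cells made up 16.8% and 4.20% of Col1a1fspKO cells and 11.6% and 1.2% of WT cells. Fewer cells of a class and less RNA per cell cannot be told apart in such sums. The libraries also differ in the depth of their shallowest cell, 2540 UMIs for Col1a1fspKO against 2909 for WT. The median Retnlg-high cell of Col1a1fspKO, at 2855 UMIs, was shallower than any WT cell. Whether this enlarged the Retnlg-high share or the last Retnlg bin of Col1a1fspKO was not tested. The classes are given next.

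Ifitm3 was higher in Col1a1fspKO in each class from progenitors to mature neutrophils. It was 1.98 times higher in Col1a1fspKO in progenitor-like cells (1.68 to 2.33), 1.17 times in preneutrophil-like (1.03 to 1.34), 1.38 times in Ltf-high (1.24 to 1.55), 1.18 times in Mmp8-positive (1.07 to 1.29) and 1.93 times in Retnlg-high cells (1.47 to 2.57). In the progenitor-like class the median cell carried 4.01 Ifitm3 UMIs per 10000 in Col1a1fspKO and 1.60 in WT, and 69.3% and 48.7% of thinned cells had a UMI, and the 5 richest cells held 23.8% and 19.6% of its UMIs. In Mono/Macro-like cells the Ifitm3 ratio was 1.04 (1.0 to 1.07). Within that class it was 0.992 (0.952 to 1.03) in cluster 0, 1.49 (1.33 to 1.67) in cluster 8 and 1.35 (1.21 to 1.5) in cluster 11. Clusters 8 and 11 thus had intervals above 1 and cluster 0 had one that held 1.

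Read against all genes, 2 of 4 members were 1.5 or more times higher in progenitor-like cells, Ifitm3 and Ifitm6, where 4.08% of genes tested were. Ifitm6 there was 2.38 times higher (1.29 to 4.53) from 34 and 17 UMIs, and the levels were 10.7 and 11.4 CPM without the cells rich in S100a8. Of the 3 members with 50 or more UMIs, 0 passed the limit in preneutrophil-like (background 2.93%), Ltf-high (3.44%) and Mmp8-positive cells (4.42%), and 0 passed it in either direction in Mono/Macro-like cells (3.44% higher, 3.30% lower). Ifitm1 had 36 and 9 UMIs in Mono/Macro-like cells, under the minimum, with 14 of the 36 in 1 cell. In Retnlg-high cells 2 of 4, Ifitm1 and Ifitm3, were 1.5 or more times higher, in a class where 13% of genes were and WT held 14 cells. The Ifitm3 log2 ratio of that class, 0.95, lay between 0.34 and 0.46 under 5 other ways of drawing its border, each of which left more Ifitm3 UMIs in it. The Ifitm1 ratio there was 6.83 (1.79 to 58.1), with 2 UMIs in WT, under the floor of 3, and its log2 ratio went from 2.77 to 1.82 in cells above the UMI minimum that both libraries share.

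Ifitm6 and Ifitm2 differed less between the libraries. Ifitm6 was 0.881 times as high in Col1a1fspKO in Ltf-high cells (0.834 to 0.931), 1.02 times in Mmp8-positive (0.966 to 1.08), 0.977 times in Retnlg-high (0.810 to 1.18) and 1.05 times in preneutrophil-like cells (0.957 to 1.16). In Mono/Macro-like cells it was 0.780 times as high (0.710 to 0.857), with 0.764 (0.688 to 0.847) in cluster 0. In clusters 8 and 11 the Ifitm6 ratio was 1.18 (0.879 to 1.58) and 0.861 (0.582 to 1.27), with intervals that held 1. S100a8 in the whole class went the other way at 6438 and 4436 CPM. Ifitm2 ratios lay between 1.06 and 1.26 in the progenitor-like, Mono/Macro-like and 4 neutrophil classes, and the log2 ratio in Mmp8-positive cells, 0.12, ranged from -0.20 to 0.43 with other class borders. Of these, the intervals in preneutrophil-like (1.05 to 1.52) and Mono/Macro-like cells (1.03 to 1.19) did not reach 1. Ifitm1 in progenitor-like cells was 1.42 times higher (1.22 to 1.65), and 1.55 times without the richest cell of each library. Its log2 ratio, 0.50, was 0.10 when cells were averaged and 1.16 when single cells were assigned by marker score.

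**Figure D4:**
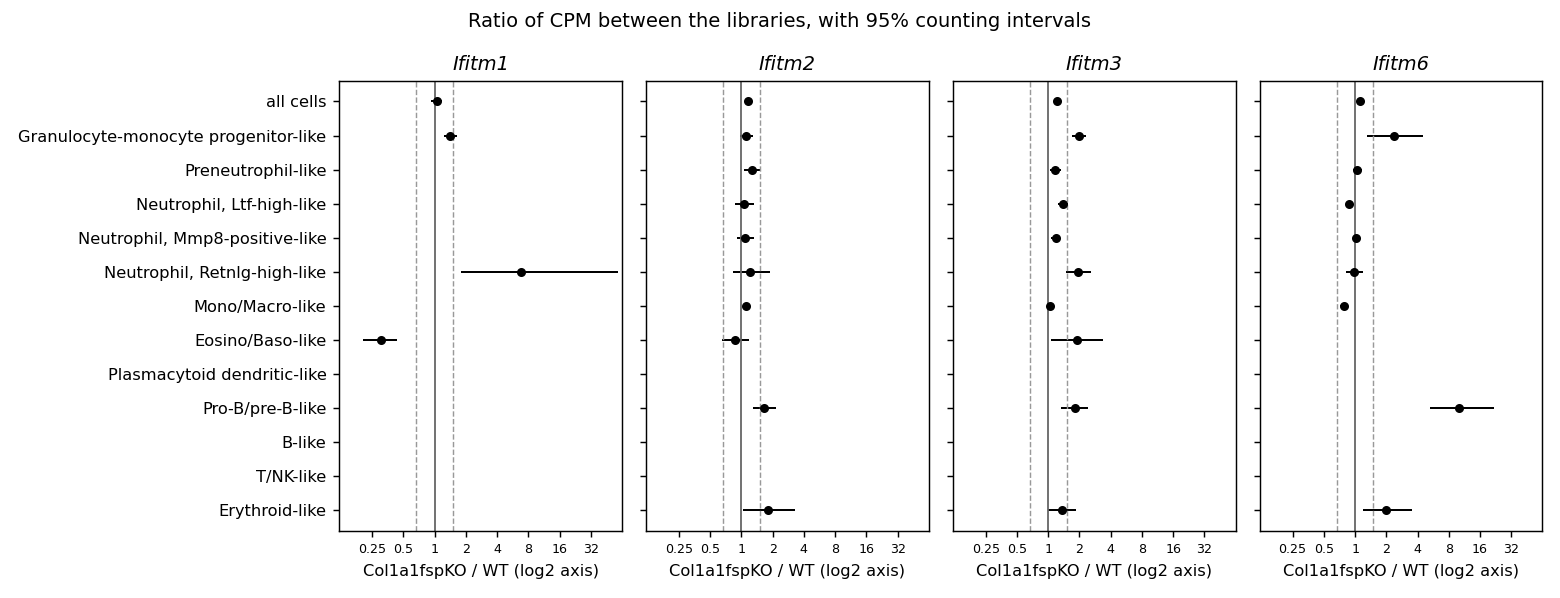
Col1a1fspKO over WT ratio of CPM (x axis, log2 scale) for each Ifitm gene in all cells and in each class (y axis), shown where both libraries together had 50 or more UMIs. Points are ratios, bars exact 95% counting intervals, the solid line is 1 and dashed lines are 1.5 times higher and lower. Ifitm3 lies right of 1 in all 5 progenitor and neutrophil classes, from 1.17 to 1.98, and at 1.04 in Mono/Macro-like cells.

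Among the other classes, several larger ratios rested on few cells or UMIs. In Eosino/Baso-like cells 1 of 3 members tested was 1.5 or more times higher (6.63% of genes) and 1 was lower (8.90% of genes). Ifitm3 was 1.90 times higher (1.07 to 3.40), but 19 of the 30 Col1a1fspKO UMIs lay in 1 cell, and without the richest cells the ratio was 1.08 (0.459 to 2.40). Ifitm1 was 0.301 times as high (0.206 to 0.430), and 0.411 times (0.254 to 0.640) without those cells. Its log2 ratio, -1.73, was -0.77 with 15 components and -1.05 with single cells assigned by marker score. In pro-B/pre-B-like cells 3 of 3 members tested were 1.5 or more times higher, where 3.91% of genes were. Ifitm6 had 87 and 10 UMIs there, yet 74 of the 87 lay in 6 cells with S100a8 above 20000 CPM, and without such cells the levels were 10.9 and 4.26 CPM. Its log2 ratio, 3.34, was 0.57 with the unnamed cluster counted in this class. Ifitm2 and Ifitm3 were spread more widely. Ifitm2 was 122 and 73.7 CPM, 1.65 times as high (1.28 to 2.13), with UMIs in 48 and 39 cells, and 1.66 times without the richest cells. Ifitm3 was 97.6 and 54.4 CPM, 1.79 times as high (1.34 to 2.41), with UMIs in 51 and 32 cells. Its levels were 80.7 and 53.2 CPM without cells rich in S100a8, and its ratio was 2.38 without the richest cell of each library. In erythroid-like cells 2 of 3, Ifitm2 and Ifitm6, were 1.5 or more times higher (3.45% of genes), from 37 against 20 and 45 against 22 UMIs. The Ifitm6 log2 ratio there, 1.01, was -0.052 when cells were averaged and 0.20 with CCA integration, but 1.90 without cells rich in S100a8, at 29.3 and 7.85 CPM, and the ratio was 2.70 (1.27 to 6.26) without the richest cells. The 37 Ifitm6 UMIs of T/NK-like cells in WT, against 4 in Col1a1fspKO, lay in 3 cells, of which 2 with S100a8 above 20000 CPM held 36.

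Interferon-stimulated genes gave a frame for the members. Of a list of 44 such genes, 43 were listed and 39 had 50 or more UMIs; 15 were 1.5 or more times higher in Col1a1fspKO and 1 lower, against 3.0% and 2.93% of all genes tested, with a median log2 ratio of 0.39 against -0.04 over all genes tested. The 5 of most UMIs differed less: Ifi27l2a was 1.2 times (1.16 to 1.24), the GPI-anchored antiviral gene Ly6e 0.937 times (0.904 to 0.972), the tetherin gene Bst2 1.14 times (1.05 to 1.23), the dNTPase gene Samhd1 1.18 times and Slfn1 1.42 times as high. Those past the limit were sparser genes. Isg15, a ubiquitin-like modifier, was 1.73 times higher (1.44 to 2.07) from 334 and 193 UMIs, and Ifit1, which binds viral RNA, 2.74 times (1.76 to 4.39) from 77 and 28 UMIs. Isg15 and Ifit1 were named after their values were seen. Sums over all cells hid other values inside classes: Ly6e was 3.61 times higher in preneutrophil-like cells (2.86 to 4.59), from 285 and 98 UMIs, and 2.41 times in Ltf-high cells (1.33 to 4.54), from 39 and 17 UMIs, against 0.960 times in Mono/Macro-like cells (0.911 to 1.01).

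In Mono/Macro-like cells 8 of 27 interferon-stimulated genes tested were higher and 0 lower, against 3.44% and 3.30% of all genes tested there. Their median log2 ratio was 0.23 against -0.01 over all genes, and Ifitm3 was at 0.05 and Ifitm6 at -0.36. In progenitor-like cells 2 of 5 were higher (4.08% of genes), in preneutrophil-like 1 of 3 (2.93%) and in Ltf-high 1 of 4 (3.44%). In Mmp8-positive cells 3 of 7 were (4.42%), in Retnlg-high 1 of 3 (13%), in pro-B/pre-B-like 3 of 8 (3.91%) and in T/NK-like 2 of 5 (8.63%). In these classes 0 were lower. In plasmacytoid dendritic-like cells 0 of 6 and in erythroid-like cells 0 of 5 were higher. In each of these 2 classes 1 was lower (6.62% and 6.56% of genes). In B-like cells 0 of 3 and in Eosino/Baso-like cells 0 of 1 were past the limit. Of 12 interferon receptor and signalling genes tested in all cells, 1 was higher, the transcription factor gene Irf1 at 1.69 times (1.34 to 2.13), and 0 were lower. The receptor and kinase genes Ifngr2, Jak1, Ifngr1 and Ifnar2, those of most UMIs, had ratios of 1.12, 1.08, 0.889 and 0.920. The genes of IFITM partner proteins gave 0 of 7 in either direction, among them Vapa at 0.984 times, the tetraspanin genes Cd81 at 0.982 times and Cd9 at 1.19 times, Nedd4, a ubiquitin ligase gene, at 0.883 times and Zmpste24, a protease gene needed for IFITM function, at 0.972 times. Other antiviral membrane protein genes gave 0 of 6, with Tspo at 0.918, Serinc3 at 0.922 and Cd63 at 0.981 times. Genes that respond to tissue dissociation had a median on the same side as the interferon list: 2 of 11 were higher, Fos at 1.68 times and Nr4a1 at 1.53 times, with a median log2 ratio of 0.30, and their part in the result was not tested. Those of most UMIs, Hsp90aa1, Btg2, Jund, Ier2 and Junb, had ratios of 0.807, 1.22, 1.29, 1.12 and 1.40.

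**Figure D5:**
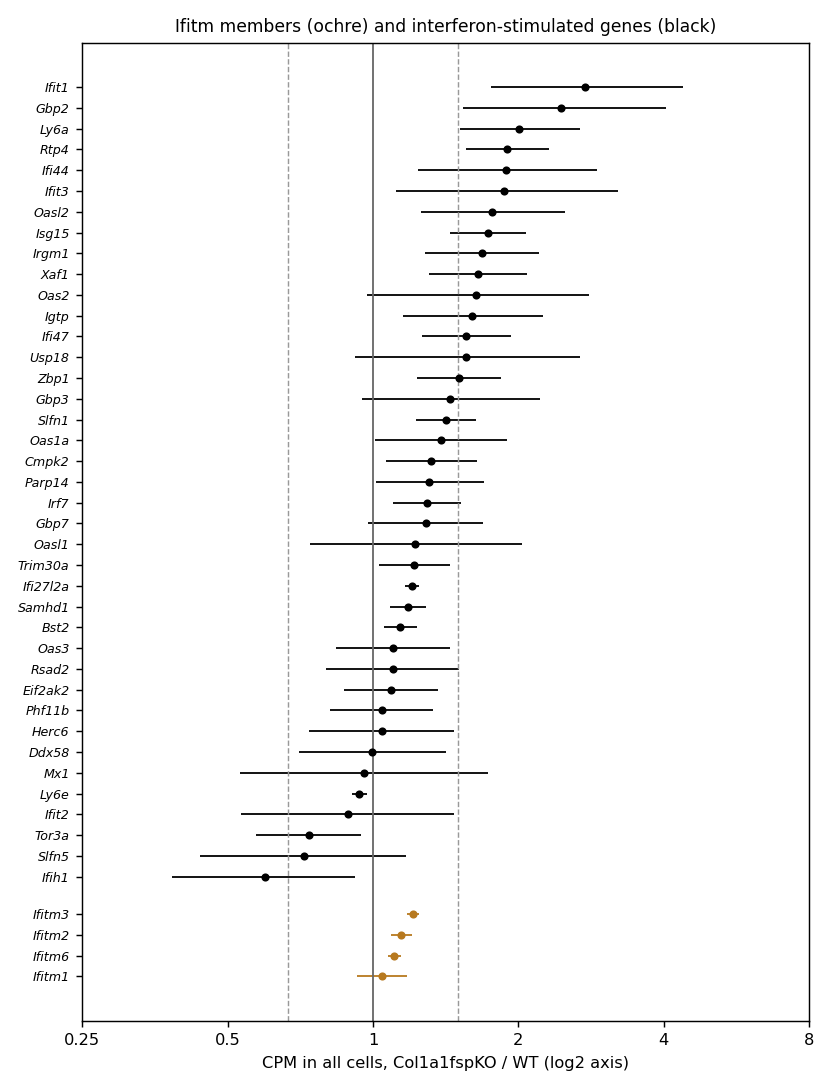
Col1a1fspKO over WT ratio of CPM in all cells (x axis, log2 scale) for the 39 interferon-stimulated genes with 50 or more UMIs (black) and the 4 Ifitm members (ochre), with exact 95% counting intervals; dashed lines are 1.5 times higher and lower. The members lie between 1.05 and 1.21, left of the 15 genes past the upper dashed line.

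The other genes of the locus did not share one direction. Of 10 neighbours, up to 5 on each side, Psmd13, Pkp3, Sigirr and Ptdss2 were listed, with ratios of 0.871 (0.778 to 0.976), 1.38 (1.07 to 1.78), 0.813 (0.606 to 1.09) and 0.906 (0.774 to 1.06) over all cells. Ifitm5, beside Ifitm2, was not listed. Other family genes were sparse: Ifitm7 had 5 and 8 UMIs, and Ifitm10 59 and 48, most of them in T/NK-like cells.

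Genes with the most similar pattern were found by correlating log2(CPM + 10) over 27 points, the clusters of 20 or more cells in each library, among 9667 genes. The points share libraries, depth and the same clustering, so the values describe likeness only. Ifitm1 was most like Gm5111 (r = 0.82), Rab38, Gata2, Slc22a3 and Muc13, of which Gata2 is a transcription factor of progenitors, basophils and mast cells. Ifitm2 was most like 1110008F13Rik (0.92), Gm1673, Tnfrsf21, Rab31 and Eif4ebp1, and Ifitm3 most like Gm1673 (0.95), Fgd4, Lilrb4a, Rab31 and Fosl2. Ifitm6 was most like Anxa1 (0.96), Mcemp1, Itgam, Pram1 and Ltb4r1, genes of granulocyte adhesion and lipid signalling among them. Between members, r was 0.88 for Ifitm2 and Ifitm3, 0.71 for Ifitm3 and Ifitm6, 0.64 for Ifitm2 and Ifitm6, 0.42 for Ifitm1 and Ifitm2, 0.24 for Ifitm1 and Ifitm3 and -1.8e-05 for Ifitm1 and Ifitm6. With a pseudocount of 1 in place of 10, 3, 3, 2 and 3 of the 5 genes named for Ifitm1, Ifitm2, Ifitm3 and Ifitm6 were named again.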

How the data were processed

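Each genotype gave 1 library of bone marrow cells. The deposited counts are UMIs per gene and cell, which the authors made with Cell Ranger on mm10 (its version is not given in the sources used here) and filtered on 200 to 7000 genes and at most 10% mitochondrial UMIs; 0 cells fell outside these limits. The submitters' processing notes name Seurat 3.5.3. No cell annotation was used. The libraries were merged without batch correction and clustered with Seurat 5.3.0 in R 4.3.3 (27 principal components, resolution 0.8, 2000 variable genes of which 1973 were used after the genes to be compared were left out). Clusters were named from marker lists where at least 3 markers were detected. Doublets, called with scanpy 1.11.5 (4 in Col1a1fspKO, 9 in WT), were kept. Leaving them out was an alternative.

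UMIs were summed per class and library and given as CPM of the class with an exact Poisson 95% interval; ratios have exact binomial and shares exact Clopper-Pearson intervals (Python 3.11.15, scipy 1.17.1). Against a library at 0, the floor of 3 UMIs over the class was used. Genes count as past the limit at 1.5 times between libraries or 2 times between classes, with 50 or more UMIs. Intervals cover counting error only, since 1 pool per genotype gives no spread between mice and no test. For shares each cell was thinned to 2500 UMIs, and no cell was shallower. Promoters, motifs and coordinates are from RefSeq on GRCm38.p6, and transcripts from GENCODE. Members were named in every class, the 5 genes of highest correlation per member were named, and the 5 list genes of most UMIs were named, others after their values were seen, and 1 gene that this rule names is not reported here. The members and lists were chosen with earlier results of these data known. Another minimum of UMIs, resolutions of 0.4 and 1.2, 15 components, an integrated clustering, single-cell class calls, stricter filters and other scalings were tried. Scripts were tested on simulated data.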

Additional observations from a re-analysis of the deposited data

Results flagged for a closer look

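The difference between the libraries in Ifitm1 went in opposite directions in 2 small classes. Ifitm1 was 6.83 times as high in Col1a1fspKO as in WT in Retnlg-high neutrophils (1.79 to 58.1), from 48 UMIs in 55 cells and 2 UMIs in 14 cells, the latter under the floor of 3 UMIs. Its log2 ratio went from 2.77 to 1.82, from 15 UMIs in all, when only cells above the UMI minimum that both libraries share were kept. In Eosino/Baso-like cells it was 0.301 times as high (0.206 to 0.430), from 37 UMIs in 9 cells and 187 UMIs in 18 cells, of which 1 WT cell held 81. That log2 ratio, -1.73, was -0.77 with 15 components and -1.05 with single cells assigned by marker score. The difference between the 2 ratios was not tested, since each rests on 1 library per genotype. Median depths were 2855 and 3126 UMIs in the first class and 7910 and 5676.5 UMIs in the second.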

How the results depend on the processing

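All values here are log2 ratios. Over 80 results and 14 alternatives, 947 of 1092 values stayed within the counting interval of the value reported, 143 moved beyond it and 2 of differences past the limit changed sign. In all 38 values changed sign, the others of differences under the limit. Ifitm6 in progenitor-like cells went from 1.25 to -0.10 without cells rich in S100a8, an alternative added after seeing the data, and Ifitm6 in erythroid-like cells from 1.01 to -0.052 with cells averaged. Over all cells, averaging cells in place of summing UMIs moved Ifitm1 from 0.06 to -0.16, Ifitm2 from 0.19 to 0.085 and Ifitm3 from 0.27 to 0.12, and keeping only cells above the UMI minimum that both libraries share moved Ifitm6 from 0.15 to 0.052. Ifitm1 in preneutrophil-like over progenitor-like cells of Col1a1fspKO went from -5.74 to -4.57 with single cells assigned by marker score. Ifitm3 in Mono/Macro-like over progenitor-like cells went from 2.88 to 2.51 at resolution 1.2 and 2.48 with 15 components in Col1a1fspKO, and in WT from 3.81 to 3.45 and 3.43, and to 3.505 with single cells assigned. Ifitm6 in Ltf-high over preneutrophil-like cells went in Col1a1fspKO from 2.06 to 1.81 with single cells assigned, 1.885 with cells averaged and 2.415 without the 20 most abundant genes, and in WT from 2.31 to 2.09 with single cells assigned, 2.65 without those genes and 2.14 with CCA integration. The cause was not tested. Ifitm3 between the libraries kept its sign under every alternative in progenitor-like (0.64 to 1.06), preneutrophil-like (0.16 to 0.41), Ltf-high (0.44 to 0.64), Mmp8-positive (0.19 to 0.34) and Retnlg-high cells (0.34 to 1.02), as did Ifitm6 in Mono/Macro-like cells (-0.43 to -0.34). At a minimum of 20 UMIs in place of 50, genes past 1.5 times rose from 3.0% to 4.57% higher and from 2.93% to 4.91% lower over all cells. Resolution 0.4 merged neutrophil stages and gave no value for them. No paired analysis was possible because each genotype had 1 library, and no replicate could be left out for the same reason.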

Other observations

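Ifitm10, a family gene outside the interferon-induced cluster of members, was highest in T/NK-like cells. They held 38 of its 59 UMIs in Col1a1fspKO, a level of 130 CPM (91.9 to 178). In WT they held 28 of its 48 UMIs, a level of 163 CPM (109 to 236). Most of its other UMIs lay in the neutrophil classes, so the gene was not confined to T/NK-like cells. Mmp8-positive cells held 11 of them per library, which is 14.0 CPM for Col1a1fspKO and 21.8 CPM for WT. Within the T/NK-like class Ifitm10 was higher in cells with natural killer receptor UMIs when the libraries were pooled. Over both libraries, cells with a Cd3 UMI and none of those receptors held 3 Ifitm10 UMIs in 22 cells, or 30 CPM (6.19 to 87.7). Cells with a receptor UMI and no Cd3 UMI held 21 in 19 cells, or 171 CPM (106 to 262), and cells with both held 42 in 49 cells, or 174 CPM (125 to 235). In each library alone the intervals of the first 2 kinds of cell overlapped, at 41.8 CPM (8.62 to 122) and 176 CPM (98.7 to 291) in Col1a1fspKO and at 0 CPM (up to 131) and 160 CPM (58.8 to 349) in WT. This split was made after the data were seen. The genes of most similar pattern over clusters were Fam102a (r = 0.92), Cd3g, Ncr1, Klra3 and Bcl11b. In Mono/Macro-like cells, where Ifitm3 was highest in CPM of all UMIs, Ifitm10 had 0 UMIs in either library, for which the exact Poisson upper limits are 1.88 and 1.91 CPM.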
